A study of Arabidopsis thaliana with 17 samples.

Results

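Open chromatin of flowers was set against that of root cells in Arabidopsis thaliana (Col-0), using the peak lists that were deposited at full depth, without a mark for a common number of reads. Of the 17 samples of the series, 5 entered the comparison: open flowers, unopened flowers, whole root, non-hair cells and hair cells of the root epidermis, each with 1 list. To give the lists equal weight, the best 11693 nuclear peaks by height were kept in each, the number in the shortest list (open flowers). The 5 sets of peaks merged into 23308 sites. A site with a kept peak in both flower lists and in no root list is called flower-only (2336 sites), and one with a kept peak in all 3 root lists and in neither flower list is called root-only (2745 sites).

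All 5 samples came from INTACT lines, in which a nuclear envelope fusion protein (NTF) is biotinylated by the ligase birA so that nuclei can be captured. In every line the ACT2 promoter drove birA. The fusion itself was under the UBQ10 promoter in both flower samples and in whole root, under GL2 in non-hair cells and under ADF8 in hair cells. Whole roots and hair cells came from seedlings of 7 days and non-hair cells from seedlings of 10 days, all on plates with sucrose, whereas flowers came from plants in soil. Organ and growth medium therefore cannot be told apart. Day length and temperature were the same for both.

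DNase I cuts DNA where nucleosomes have been displaced, mostly at promoters and enhancers to which transcription factors are bound, so a peak marks DNA open to regulators. In flowers, MADS-domain factors such as APETALA1 (AP1), APETALA3 (AP3), AGAMOUS (AG) and the SEPALLATA proteins (SEP) act in combinations that specify the organs, and they bind a motif called the CArG box. The root epidermis consists of hair cells and non-hair cells, and takes up nitrate, phosphate, iron and water. Flowers and whole roots are mixtures of cell types, in which a site open in few cells and a site weakly open in many cannot be told apart.

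The sequences of 6 separating sites are shown, each nearest to a gene with a known role in flowering, organ polarity or root uptake. They are the 3 highest of each kind among the list members' upstream or intergenic sites outside UTRs, leaving out the genes whose promoters drive the transgenes. They were read from the RefSeq assembly TAIR10.1, forward strand. Capitals mark matches to the CArG box, W-box, G-box, site II element or auxin response element.
SOC1, flower-only, chr2:18811701-18811890: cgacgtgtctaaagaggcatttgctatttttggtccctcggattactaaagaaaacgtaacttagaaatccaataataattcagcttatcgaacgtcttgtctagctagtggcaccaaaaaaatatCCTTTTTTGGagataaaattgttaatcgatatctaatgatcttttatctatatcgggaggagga
FUL, flower-only, chr5:24506301-24506450: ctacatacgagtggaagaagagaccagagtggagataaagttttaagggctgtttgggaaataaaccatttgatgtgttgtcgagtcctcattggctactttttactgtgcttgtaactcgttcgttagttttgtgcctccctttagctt
KAN1, flower-only, chr5:5417321-5417510: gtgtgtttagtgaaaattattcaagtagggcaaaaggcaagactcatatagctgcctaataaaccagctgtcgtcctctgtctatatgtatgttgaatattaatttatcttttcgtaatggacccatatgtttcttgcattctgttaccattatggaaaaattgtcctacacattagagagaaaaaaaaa
PHT1;1, root-only, chr5:17402721-17402890: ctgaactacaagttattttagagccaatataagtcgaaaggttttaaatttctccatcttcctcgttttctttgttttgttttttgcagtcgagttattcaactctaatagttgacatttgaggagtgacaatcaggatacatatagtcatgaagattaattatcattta
AHA2, root-only, chr4:14777701-14777890: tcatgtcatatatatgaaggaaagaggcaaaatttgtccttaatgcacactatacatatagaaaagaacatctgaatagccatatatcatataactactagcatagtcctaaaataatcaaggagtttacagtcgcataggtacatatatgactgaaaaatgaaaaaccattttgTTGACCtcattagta
NRT1.1, root-only, chr1:4102501-4102790: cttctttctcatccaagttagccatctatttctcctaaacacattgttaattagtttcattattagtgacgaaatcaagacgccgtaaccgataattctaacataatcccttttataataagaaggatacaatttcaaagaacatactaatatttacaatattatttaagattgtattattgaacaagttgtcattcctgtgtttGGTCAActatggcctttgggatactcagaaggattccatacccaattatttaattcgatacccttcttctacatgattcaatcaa
The capitals in the SOC1 site are a CArG box at bases 127 to 136, and those in the AHA2 and NRT1.1 sites are W-boxes at bases 176 to 181 and 206 to 211, the last on the reverse strand. None of the 5 motifs matched in the sites of FUL, KAN1 and PHT1;1.

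The deposited lists held 12230 peaks for open flowers, 13485 for unopened flowers, 29471 for whole root, 27247 for non-hair cells and 25452 for hair cells. The number of reads behind them is unknown. The median height of the kept peaks was 45 in open flowers and 18 in unopened flowers, against 369, 464 and 152 in whole root, non-hair and hair cells, so heights were compared only within a list, as percentiles (100 is the highest kept peak). The kept peaks were all of the open flower peaks, 89.6% of the unopened flower peaks and between 39.99% and 46.4% of the root peaks. The lowest kept height was 20, 12, 247, 271 and 94 in the same order, and in each list that was shortened the highest peak left out had the same height as the lowest kept. Heights of unopened flowers are coarse whole numbers, with 810 peaks tied at the lowest. Between 63.0% and 67.1% of kept peaks lay within 1000 bp of a transcription start site (TSS).

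The 2 flower lists were more like each other than like any root list. Their Jaccard index (base pairs shared over base pairs in either) was 0.344. Whole root and hair cells gave 0.515, whole root and non-hair cells 0.326, and non-hair and hair cells 0.352. The 6 pairs of a flower list and a root list lay between 0.175 and 0.221, below all 4 pairs within an organ. The mean was 0.384 within organs and 0.198 between them, a difference of 0.187. This was the largest of the 10 ways to divide the 5 lists into 2 and 3 (exact permutation, one-sided p = 0.1, the smallest that this design allows). Since the 5 samples are 5 different tissues, stages or cell types, the spread between lists of an organ is not a replicate error.

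The most frequent pattern was a peak in all 5 lists, at 3300 sites (14.2%). Root-only sites followed with 2745 (11.8%), and flower-only sites came to 2336 (10.0%). A further 2389 sites were in the unopened flower list alone and 1797 in the open flower list alone. Among root lists, 1563 sites were in non-hair cells alone and 1429 in whole root and hair cells together. The counts of separating sites depend on how many lists a site has to be in: leaving out open flowers gave 4810 flower-only sites, leaving out unopened flowers gave 4193, and leaving out non-hair cells gave 4193 root-only sites.

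**Figure D1:**
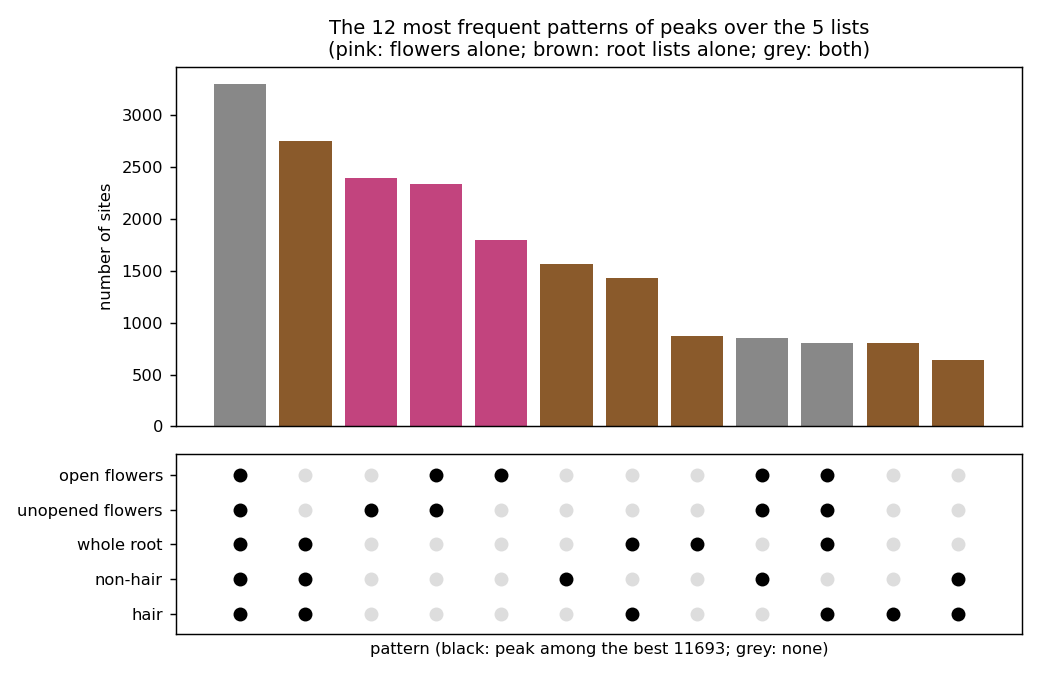
Number of sites (upper panel, linear axis) for each of the 12 most frequent combinations of lists, with black points in the lower panel for the lists that hold a peak. The 3300 sites of all 5 lists lead, followed by the 2745 root-only sites.

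A flower-only site was often present in a root list at a lower rank. Of the 2336 flower-only sites, 1472 had a lower peak in the part of a root list that was not kept, and 864 (3.71% of all sites) had no peak of any rank in the 3 root lists, which is what having no root peak of any rank means throughout. The lower peaks were found at 51.4% of flower-only sites in whole root, 46.3% in non-hair cells and 37.8% in hair cells. In whole root they had a median percentile of 36.0 in the full list, where the kept peaks began at 60.0. Of the 2745 root-only sites, 2697 had no flower peak of any rank. That count cannot be set against the 864, because the flower lists hold hardly any peaks beyond those kept. Where all peaks were used instead of equal numbers, there were 930 flower-only and 9268 root-only sites.

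Lists of 8 other sets of nuclei, which did not define the sites, were read at the same sites. They were 3 non-hair lists, a second whole root list, a pooled hair list and 3 lists of seed coat epidermis (4 or 7 days past anthesis), all marked 6.8M. The 5 root lists come from the same kinds of root sample that chose the sites, so their recovery is not independent support. Among the best 11693 peaks of the root lists, between 72.7% and 94.6% of root-only sites were found again, and between 4.11% and 12.2% of flower-only sites. The share of all sites found in these lists was 46.7% to 49.3%. Of the root-only sites, 61.2% were in every one of the 5 unused root lists, and 80.0% of flower-only sites were in none. Over all sites, 26.2% were in every one and 30.8% in none. The lowest recovery of root-only sites, 72.7%, was in non-hair replicate 4.

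In the seed coat lists the order turned. Flower-only sites were present at 59.5%, 53.5% and 45.6% in the 4-day list, the 4-day pool and the 7-day pool, against 9.14%, 12.1% and 15.4% of root-only sites. Sites of all 5 lists were present at 88.1% to 89.2%. At least 1 seed coat list held 68.9% of flower-only sites, 20.7% of root-only sites and 52.8% of all sites. Seed coats, like flowers, came from plants in soil.

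**Figure D2:**
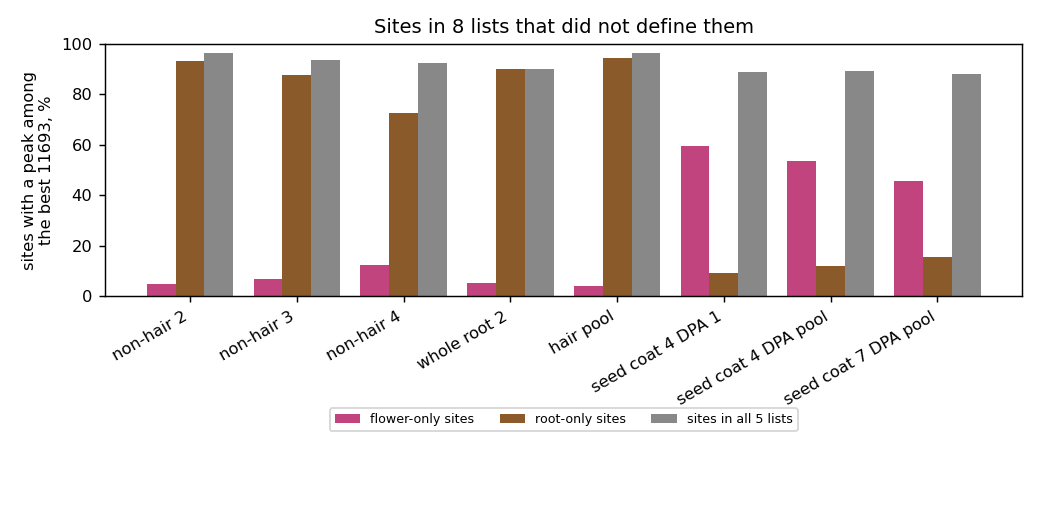
Share of flower-only, root-only and common sites (vertical axis, %) with a peak among the best 11693 of each of 8 lists that did not define them. Root-only sites reach 72.7% or more in the 5 root lists and at most 15.4% in the seed coat (DPA, days past anthesis), where flower-only sites reach 45.6% to 59.5%.

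Both kinds of separating site lay farther from gene starts than common ones. The median distance to a TSS was 815 bp for flower-only, 795 bp for root-only and 254 bp for sites of all 5 lists. The 400 bp before a TSS held 23.6% of flower-only sites, 29.3% of root-only sites and 45.3% of common sites. Flower-only sites were more often in a 5' UTR (12.4% against 7.36%), in coding sequence (3.68% against 0.874%) and in a 3' UTR (5.52% against 3.06%) than root-only sites, and less often in an intron (3.25% against 5.14%). Mean GC content was 37.9% in flower-only sites, 31.8% in root-only sites and 37.6% in common sites. A kept or lower root peak lay within 100 bp of 70.3% of flower-only sites, while a flower peak lay within 100 bp of 5.46% of root-only sites; the full root lists are the longer ones.

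Separating sites were not the highest peaks of the flower lists. When each list was cut into 4 equal bins by height, 12.6% of open flower sites and 15.7% of unopened flower sites in the top bin were flower-only, and 58.0% and 54.8% were in all 5 lists. In the root lists 28.7% to 34.9% of top-bin sites were root-only, and 40.4% to 43.1% were in all 5. Among flower-only sites, 676 were above the middle of both lists and 46 above percentile 90 in both. All 3 root percentiles were above the middle at 1274 root-only sites and above 90 at 153.

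Genes were grouped into 17 lists by role, and each site was given to the gene whose TSS was nearest, among protein-coding genes. Of the 12895 genes with any site, 2002 (15.5%) had a flower-only site and 2298 (17.8%) a root-only site. A list's counts are read beside these percentages. With all peaks in place of equal numbers they were 4.40% and 38.9%, with the best 6000 peaks 16.1% and 16.8%, without open flowers 30.8% and 22.5%, and without unopened flowers 27.2% and 21.1%. Where absence was judged in all peaks they were 6.15% and 17.5%. Genes with several sites can be in both counts.

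Floral identity genes had flower-only sites in 7 of the 12 members with a site (58.3%) and root-only sites in 0. The 7 were AP1, AP3, AG, SEP1, SEP2, SEP3 and JAG, and each had at least 1 flower-only site without a root peak of any rank, which 6.15% of all genes with a site had. None of their 10 flower-only sites was among the best peaks of any unused root list, and 9 of the 10 were in at least 1 seed coat list. Of all flower-only sites, 80.0% were in no unused root list and 68.9% in at least 1 seed coat list. The site of AP3, which specifies petals and stamens, lay in its 5' UTR (chr3:20121121-20121310) at percentile 78.1 in open and 81.8 in unopened flowers. AG, which specifies stamens and carpels, had a site 1580 bp upstream (chr4:10381181-10381370) at 60.0 and 73.7.

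AP1, which specifies the floral meristem and sepals and petals, had 3 flower-only sites. The highest, 2547 bp upstream (chr1:25988801-25988990), was at percentile 76.7 in open and 73.7 in unopened flowers. It had lower peaks at percentile 43.1 of the full whole root list and 36.3 of the full hair list. The only AP1 site without a root peak of any rank was its lowest, 2937 bp upstream, at 2.95 and 2.96. SEP3, a cofactor in all floral organs, had a site 453 bp upstream at 79.3 and 56.1, with a lower peak at percentile 12.9 of the full whole root list. Its site without a root peak of any rank, 17 bp downstream of its start, was at 34.6 and 43.5. SEP1 and SEP2 sites were higher in unopened flowers, with 66.0 against 2.95 for SEP1 and 79.5 against 16.0 for SEP2. JAG, a regulator of petal growth, was low in both (2.198 and 10.12). AP2 and RBE, also floral regulators, had sites in all 5 lists: the AP2 site 2744 bp upstream was at 92.8 and 99.4 in flowers and at 91.2, 81.6 and 83.7 in whole root, non-hair and hair cells. A second AP2 site, 1694 bp upstream, was at 88.6 and 66.0 against 98.0, 81.1 and 73.2, and the RBE site at 84.6 and 87.5 against 93.5, 85.4 and 96.0. Flower and root percentiles overlapped at these 2 sites, and none of the 3 passed the limma test described below for common sites.

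Flowering-time genes had flower-only sites in 3 of 8 members: SOC1, FUL and FT. SOC1 (AGL20), a MADS-domain integrator of flowering signals, had the site shown above at percentile 91.3 in open and 98.2 in unopened flowers, 671 bp upstream, with no peak of any rank in the 3 root lists. Among all peaks of the 5 unused root lists, 1 list held it. FUL (AGL8), which acts in the inflorescence meristem and in fruit valves, had its highest site 107 bp upstream at 94.9 and 92.7. That site had lower peaks at percentile 42.3 of the full whole root list and 13.9 of the full non-hair list. FT, the mobile flowering signal, had a site 3943 bp downstream of its start at 34.6 and 73.7. The bZIP partner of FT, FD, had a root-only site at 2.41 in whole root, 31.5 in non-hair and 39.3 in hair cells.

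Gynoecium and ovule genes had flower-only sites in 7 of 14 members and root-only sites in 2. With all peaks the counts were 2 and 5, and with absence judged in all peaks 2 and 2. SHP1, a carpel and fruit MADS-domain factor, had a site without any root peak at 57.8 in open and 61.4 in unopened flowers. ETT, an auxin response factor of carpel patterning, reached 78.1 and 70.1, and HEC1 and HEC2, which act in transmitting tract growth, 41.3 and 61.4, and 55.5 and 56.1. RPL, which acts in the replum of the fruit, reached 47.3 and 84.0. BEL1, an ovule homeodomain factor, had sites of both kinds. Its flower-only site was at 44.3 and 61.4, and the higher of its 2 root-only sites at 93.9 in whole root, 94.6 in non-hair and 95.7 in hair cells.

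Genes of stamen maturation and jasmonate had flower-only sites in 6 of 10 members and root-only sites in 0. With all peaks the counts were 3 and 3, with absence judged in all peaks 3 and 0, and without non-hair cells 6 and 2. MYB21, needed for stamen filament growth, had a site 83 bp upstream at 88.0 in open and 35.6 in unopened flowers. LOX2, a lipoxygenase of jasmonate synthesis, had 2 sites, at 76.7 and 73.7 just upstream and at 76.7 and 2.96 farther away. BPEp, a petal growth regulator, had a site at 97.8 and 66.0. ARF6, an auxin response factor of flower maturation, had a flower-only site 5202 bp downstream of its start. This site was higher in unopened flowers, with 90.5 against 64.3 in open flowers. ARF6 also had sites with a kept peak in every list, 998 and 2168 bp upstream. Those sites were higher in open flowers, at 97.2 against 84.0 and at 99.2 against 96.1 in unopened flowers. Of the 9 flower-only sites in this list, 4 were in a seed coat list (68.9% of all flower-only sites were), and 7 were higher in open than in unopened flowers. Of the 10 floral identity sites, 2 were higher in open flowers, and over all flower-only sites 1049 were higher in open and 1287 in unopened flowers. With 1 list per stage these counts have no test.

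The lists of pollen genes and of anther, tapetum and meiosis genes had 0 of 4 and 1 of 7 members with a flower-only site, and 1 each with a root-only site. Cuticle and shoot epidermis genes had flower-only sites in 7 of 12 members and root-only sites in 2, but no flower-only site of the list had a mean percentile of 50 or more. SHN1, an activator of cuticle synthesis, came to 52.9 in open and 43.5 in unopened flowers. KCS1, an enzyme of wax synthesis, had a flower-only site at 12.8 and 43.5 and a higher root-only site at 68.1 in whole root, 87.2 in non-hair and 72.6 in hair cells, the latter in all 5 unused root lists. Shoot and leaf polarity genes had sites of each kind in 4 of 13 members. With all peaks the counts were 1 flower-only and 8 root-only, with absence judged in all peaks 1 and 4, and without open flowers 10 and 4. KAN1 (KAN), which specifies the lower leaf side, had a flower-only site 5650 bp upstream, at 90.8 in open and 93.6 in unopened flowers. It had lower peaks at percentile 39.1 of the full whole root list and 5.39 of the full non-hair list. A root-only KAN1 site 2140 bp downstream of the start was at 56.9, 29.8 and 45.2 in whole root, non-hair and hair cells. A KAN1 site 130 bp downstream was in all 5 lists, at 64.3 and 18.5 in flowers and 69.6, 62.2 and 81.7 in roots. Flower-only sites of PHV and PHB, which specify the upper side, were at 84.6 and 94.3 and at 81.7 and 61.4. Their relative REV had a root-only site at 77.5, 54.7 and 48.5 in whole root, non-hair and hair cells, BOP2 one at 74.4, 38.6 and 42.6, and TCP4 one at 53.7, 74.2 and 70.2. AS1, a leaf MYB factor, had a flower-only site at 27.3 and 87.6.

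**Figure D3:**
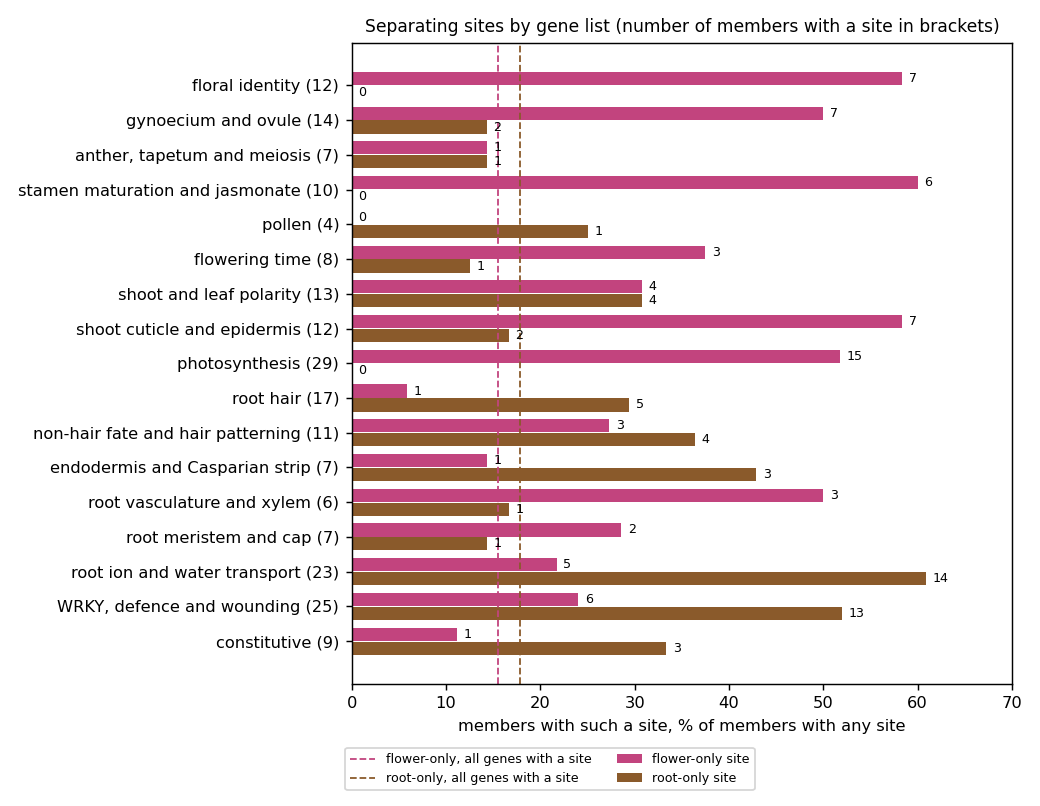
Share of members with a flower-only or a root-only site (horizontal axis, % of members with any site; numbers are counts of members) in 17 gene lists, with dashed lines for all genes (15.5% and 17.8%). Floral identity, stamen and photosynthesis genes have 0 members with a root-only site, and root ion and water transport genes have 14 of 23.

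Photosynthesis genes had flower-only sites in 15 of 29 members (51.7%) and root-only sites in 0. The flower-only count was 4 with the best 6000 peaks, 10 with all peaks and 21 without unopened flowers. In 10 of the 15 there was no root peak of any rank at such a site. None of the 15 sites was among the best peaks of an unused root list, and 6 were in a seed coat list. Of all flower-only sites, 80.0% were in no unused root list and 68.9% in a seed coat list. RBCS1A, a small subunit of Rubisco, had a site at percentile 94.9 in open and 79.5 in unopened flowers, and RBCS3B one at 92.8 and 18.5. LHCB2.1, a light-harvesting protein of photosystem II, was at 88.0 and 35.6. RBCS and LHCB genes have near-identical copies, and how reads shared by copies were placed is not given in the sources used here.

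Photosystem I proteins had flower-only sites as well. LHCA1, a light-harvesting protein, was at 74.9 in open and 76.9 in unopened flowers, and LHCA3 at 19.6 and 84.0. The subunits PSAL and PSAH2 were at 73.1 and 66.0 and at 47.3 and 73.7. The flower-only site of the subunit PSAD-1, 5352 bp upstream, was at 67.6 and 50.3. Another PSAD-1 site, 8 bp downstream of its start, was in all 5 lists. There the percentiles were 91.3 and 70.1 in flowers and 55.2, 15.5 and 53.6 in whole root, non-hair and hair cells. PSBP-1, of the oxygen-evolving complex of photosystem II, was at 44.3 and 85.9, and RCA, Rubisco activase, at 47.3 and 66.0. Of the 15 sites, 8 were higher in open and 7 in unopened flowers.

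Root ion and water transport genes had root-only sites in 14 of 23 members (60.9%) and flower-only sites in 5 (21.7%). Both lay above the 17.8% and 15.5% of all genes with a site. Of their 20 root-only sites, 13 were in all 5 unused root lists and 2 in a seed coat list. The shares over all root-only sites were 61.2% and 20.7%. PHT1;1, a phosphate transporter, had the site shown above, 648 bp upstream, at percentile 98.5 in whole root, 97.7 in non-hair and 99.8 in hair cells. NRT1.1, a nitrate transporter and sensor, had a site 2577 bp upstream at 99.4, 94.9 and 97.6. AHA2 (HA2), the main proton pump of the root plasma membrane, had 3 root-only sites, of which the one shown was at 95.6, 98.0 and 99.3.

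The sulfate transporter SULTR1;2 had 3 root-only sites, the highest in an intron at 88.1, 92.9 and 93.5. SULTR1;1 had one at 72.8, 59.2 and 91.4. AKT1 (KT1), the inward potassium channel, had a site 88 bp upstream at 90.5, 84.6 and 92.1. FIT (FRU), the regulator of iron uptake, had a site 152 bp upstream at 74.2, 55.9 and 90.8, and the ammonium transporter AMT1;2 one at 71.6, 52.9 and 85.6. The aquaporin genes PIP2;2 (PIP2B) and TIP2;3 had sites at 89.2, 64.7 and 88.4 and at 76.7, 76.6 and 67.9. The remaining members with such a site and a mean of 50 or more were NRT2;1 (49.8, 81.2 and 87.3), its partner NAR2.1 (WR3; 56.5, 58.6 and 80.8) and PHT1;4 (65.03, 82.1 and 85.1).

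IRT1, the iron transporter of the epidermis, had a lower root-only site at 18.0, 58.0 and 41.5. Another aquaporin gene, PIP1;2 (PIP1B), had a flower-only site at 69.4 in open and 95.0 in unopened flowers.

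Genes of WRKY factors, defence and wounding had root-only sites in 13 of 25 members (52.0%) and flower-only sites in 6 (24.0%). Both lay above the 17.8% and 15.5% of all genes with a site. Of the 17 root-only sites, 11 were in every unused root list, as were 61.2% of all root-only sites. WRKY29 had a site 476 bp upstream at 93.8 in whole root, 90.8 in non-hair and 98.3 in hair cells, and WRKY53 one 234 bp upstream at 93.5, 67.4 and 85.6. JAZ1, a repressor of jasmonate responses, was at 94.9, 91.3 and 91.1, and PEN2, a myrosinase of defence, at 94.4, 90.2 and 88.0. A flower-only site of PEN2 at 9.98 and 35.6 lay just beside it. WRKY11, WRKY70, WRKY75, PEN3, RBOHD and MYB51 had root-only sites with mean percentiles from 55.8 (MYB51) to 89.9 (WRKY11). WRKY11, FLS2 (a receptor of bacterial flagellin) and JAZ5 had flower-only sites at 82.7 and 66.0, 86.4 and 43.5, and 83.7 and 61.4. Of the 7 flower-only sites of the list, 3 were among the best peaks of no unused root list, against 80.0% of all flower-only sites. The WRKY11 site and both PEN2 sites were in 3 of those lists, and the JAZ5 site in 1.

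**Figure D4:**
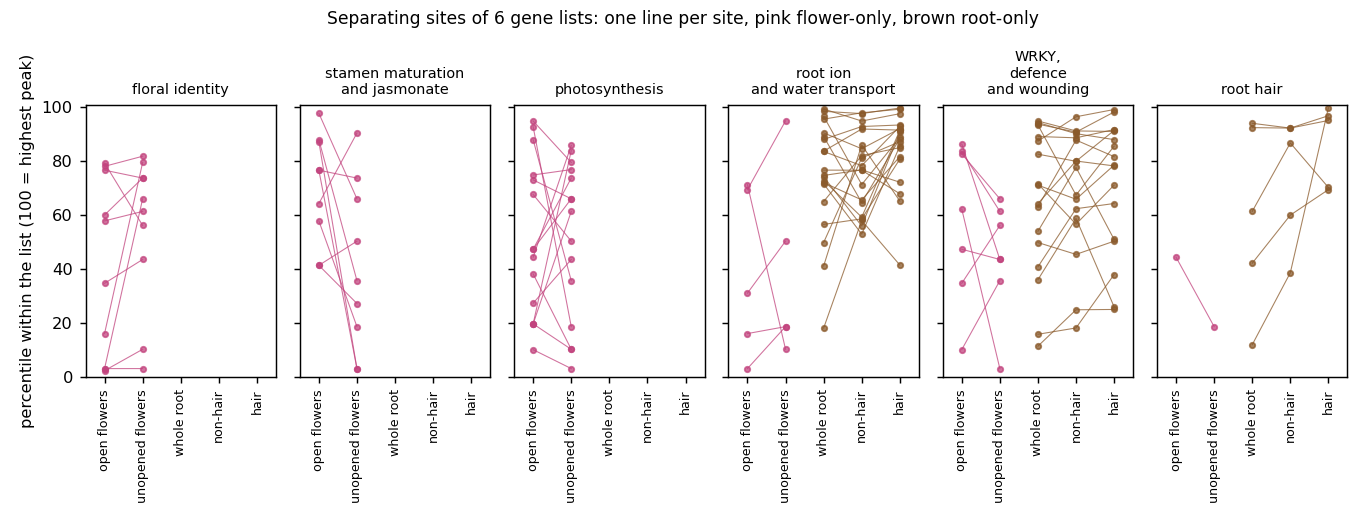
Within-list percentile (vertical axis, 100 is the highest kept peak) of every separating site of 6 gene lists, each line joining the lists that hold the site. Flower-only sites of floral identity genes lie between 2.198 and 81.8, and root-only sites of the transport genes reach 99.8.

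In root-only sites the root epidermis lists were closer to the 17.8% of all genes than the transport and WRKY lists were. Root hair genes had root-only sites in 5 of 17 members (29.4%) and flower-only sites in 1 (5.88%, against 15.5% of all genes). With all peaks the counts were 14 root-only and 0 flower-only, where 38.9% and 4.40% of all genes had such sites. RHD6, the factor that starts hair growth, was at 92.5 in whole root, 92.3 in non-hair and 95.1 in hair cells, and the receptor kinase gene MRH1 at 94.1, 92.3 and 96.9, so neither told the 2 epidermal types apart. RHD2, the NADPH oxidase of hair growth, was at 61.4, 86.8 and 70.2. EXPA18, an expansin, was at 42.1, 60.0 and 69.4. Genes of non-hair fate and hair patterning had root-only sites in 4 of 11 members (36.4%) and flower-only sites in 3 (27.3%). With all peaks these counts were 8 and 1. CPC, which moves from non-hair to hair cells, was at 61.4, 91.9 and 61.6, and ETC1 at 52.2, 77.1 and 21.2. TRY and ETC3 (CPL3), which also act in leaf trichomes, had flower-only sites at 50.2 and 79.5 and at 47.3 and 95.0. The third member with a flower-only site was CPC, at 27.3 in open and 18.5 in unopened flowers. TRY also had a root-only site, at 51.2 in whole root, 60.7 in non-hair and 68.7 in hair cells, which was in all 5 unused root lists.

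The promoters that drove the transgenes need a separate reading, since each line carries an added copy that cannot be told apart from the gene itself. The GL2 site was at 99.6 in non-hair cells, 51.9 in whole root and 30.5 in hair cells, and the ADF8 site at 99.8 in hair cells, 38.6 in non-hair cells and 11.8 in whole root. ACT2 had a root-only site at 98.7, 99.7 and 99.7, with a site just beside it at 79.3 and 61.4 in flowers and 96.8 in whole root, although all 5 lines carry ACT2:birA. The UBQ10 site in all 5 lists was at 93.6 and 81.8 in flowers and 99.4 in whole root, the lines with a UBQ10 transgene, and at 72.3 in non-hair and 81.7 in hair cells. A second UBQ10 site was at 97.5 and 89.0 in flowers, 80.7 in non-hair and 56.8 in hair cells, with no kept peak in whole root, and another, at 99.3, was in whole root alone. These 4 genes are among the members of the lists.

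Among inner root tissues, the endodermis list had root-only sites in 3 of 7 members. MYB36, the switch to endodermal differentiation, was at 89.9 in whole root, 98.7 in non-hair and 85.6 in hair cells. The receptor kinase gene SGN3 (GSO1) was at 45.9, 74.3 and 60.3. Vasculature genes had root-only sites in 1 of 6 members and flower-only sites in 3, and meristem and cap genes in 1 and 2 of 7. The flower-only sites there included HCA2, a vascular DOF factor (80.5 and 50.3), UPB1 (81.7 and 43.5) and the auxin response repressor SHY2 (76.7 and 73.7). In the constitutive list, 3 of 9 members had a root-only site (33.3%) and 1 a flower-only site (11.1%). The shares of all genes with a site were 17.8% and 15.5%. ACT2 was 1 of the 3. GAPC2 had a root-only site at 88.2, 98.2 and 94.7 and UBQ11 a flower-only site at 94.6 and 81.8.

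The highest flower-only sites, taken without regard to gene function and with no root peak of any rank within 100 bp, included several named genes. The first lay 2883 bp upstream of AT3G27809, at 99.6 in open and 99.8 in unopened flowers. SAUR15, a small auxin-induced gene, followed with 98.8 and 99.3, 191 bp upstream, and BRC1, a TCP factor that restrains branching, with 98.8 and 95.6. SOC1 was the sixth. DTX35, a transporter needed for flavonoids in flowers, came to 92.3 and 97.1, and FUM2, the cytosolic fumarase, to 94.6 and 94.3. The other 4 of the 10 lay nearest to AT1G62370, AT3G57800, AT5G10920 and PGSIP8. None of the 10 was among the best peaks of an unused root list, which held for 80.0% of all flower-only sites. Of the 10, 8 were among the best peaks of at least 2 seed coat lists.

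The 10 highest root-only sites had percentiles of 97.7 or more in each of the 3 root lists. All 10 were in every unused root list, as were 61.2% of all root-only sites. They lay nearest to AT5G03370, CYP710A1, AT5G45500, AT4G36925, AT5G22890, ZFP6, HRS1, AT1G13310, ZIP3 and PHT1;1. CYP710A1, a sterol desaturase, was at 99.2, 99.7 and 99.5, and HRS1, a repressor that links phosphate and nitrate responses in the root, at 99.4, 98.3 and 99.0. ZIP3, a zinc transporter, was at 98.4, 98.5 and 99.6.

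At sites present in all 5 lists the level could be tested. Percentiles were turned into normal scores and compared, flowers against roots, with limma over all 3300 sites with Benjamini-Hochberg adjustment. At an adjusted p below 0.05, 32 sites (0.97%) were higher in flowers and 40 (1.21%) higher in roots. Both flower percentiles were above all root percentiles at 1022 sites (31.0%) and below them at 433 (13.1%), and the median difference over all 3300 was 7.51 percentile points toward flowers. With the best 6000 peaks the calls were 0 and 0 (162 and 72 at an unadjusted limma p below 0.05), with all peaks 137 and 505, and with peaks ranked by −log10 p 86 and 58. Without open flowers there were 0 and 0, without unopened flowers 0 and 0, without whole root 0 and 0, without hair cells 0 and 1, and without non-hair cells 401 and 146. At an unadjusted limma p below 0.05 there were 606 and 265 with all lists, and 390 to 931 and 188 to 393 with a list left out. Where a flower list is left out, the remaining one is assumed to vary like the root lists, and any fit of 4 lists has fewer degrees of freedom.

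The sites higher in flowers were led by HAI2, a phosphatase of abscisic acid signalling, and MYB30. At the HAI2 site, 278 bp upstream, percentiles were 97.0 in open and 96.5 in unopened flowers and 35.3, 17.6 and 26.8 in whole root, non-hair and hair cells, without overlap. The normal score differed by 2.49 (SE 0.39, limma adjusted p = 0.0244). FIB, a fibrillin of plastids, was at 89.8 and 84.0 against 4.08, 16.4 and 9.99. The others of the 8 with the smallest p were AT1G64620, AT2G05310, MIPS3, ABC4 and HAT1. Of 9 photosynthesis sites in all 5 lists, 7 had both flower percentiles above all root percentiles. PSAF, a photosystem I subunit, was the one called, at 99.2 and 99.5 against 75.3, 68.0 and 54.6 (limma adjusted p = 0.0407).

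The sites higher in roots were led by TET8, a tetraspanin gene, at 9.98 in open and 2.96 in unopened flowers against 98.8, 98.4 and 99.3 in whole root, non-hair and hair cells. Its normal score was lower in flowers by -3.88 (SE 0.40, limma adjusted p = 0.0100). AHA1 (HA1), another plasma membrane proton pump, was at 4.01 and 27.1 against 99.0, 97.7 and 99.4 (limma adjusted p = 0.0184). The aquaporin gene PIP2;1 (PIP2A) was at 2.95 and 2.96 against 84.8, 79.1 and 76.7, the one called of the 7 transport sites in all 5 lists. Of these 7, flower percentiles were below all root percentiles at 3, above them at 2 and overlapping at 2. Over all 3300 sites the shares were 13.1% below and 31.0% above. AT1G74940, LINC2, TTA1, PPC1 and ZAT11 complete the 8 with the smallest p.

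Motif matches in the central 150 bp of sites, on either strand, were counted for 13 motifs. The W-box (TTGACC or TTGACT), bound by WRKY factors, was in 13.7% of flower-only sites, 38.5% of root-only sites and 22.5% of common sites, against 19.1% of the 150 bp before all gene starts. The difference of 24.8 percentage points was present within GC classes: 10.7% against 38.9% at a GC content of 30 to 35%, and 14.5% against 40.6% at 35 to 40%. Within the root lists it was in 51.4% of sites of non-hair and hair cells without whole root, 32.7% of sites of whole root and hair cells, and 19.8% of sites of whole root alone.

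Other motifs were more frequent in flower-only sites. The G-box (CACGTG) was in 15.8% of flower-only and 2.70% of root-only sites, close to the 17.5% of common sites and above the 4.78% before gene starts. At a GC content of 30 to 35% it was in 8.98% against 2.203%. The auxin response element (TGTCTC or TGTCGG) was in 17.8% against 9.07%. The site II element (TGGGCC) was in 17.4% against 2.70%, but in 35.5% of common sites. It was in 6.25% of flower-only sites without a root peak of any rank and in 23.9% of those with a lower one.

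The CArG box of MADS-domain factors was in 2.57% of flower-only sites, 0.874% of root-only sites and 2.70% of common sites, against 1.64% before gene starts. It was in 3.94% of the top and 1.88% of the bottom of 4 equal bins of flower-only sites by percentile. The LEAFY core (CCANTG) and the E-box (CANNTG) matched 19.0% and 62.3% of flower-only sites and 12.9% and 45.8% of root-only sites. The RY element (CATGCA) matched 9.55% of flower-only and 8.63% of root-only sites. The GATA motif (GATAAG) matched 10.4% and 10.2%. A G-box and an E-box can be the same bases.

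**Figure D5:**
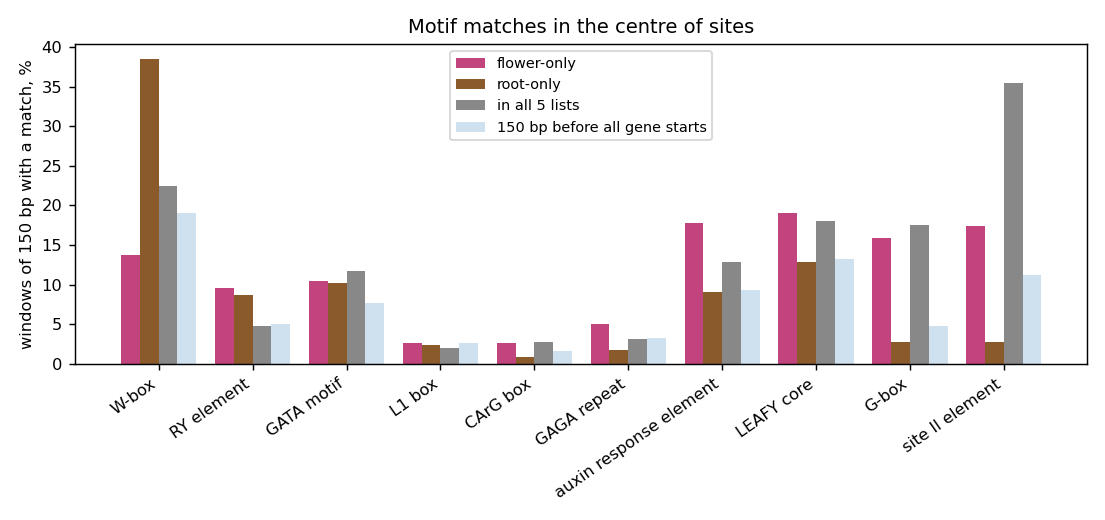
Share of windows of 150 bp with a match (vertical axis, %) for 10 motifs in flower-only, root-only and common sites and before all gene starts. The W-box is in 38.5% of root-only sites and 13.7% of flower-only sites, while the G-box and site II element are in 2.70% of root-only sites each.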

How the data were processed

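DNase I cut sites had been mapped and peaks called by the authors. The submitters' processing notes name Bowtie 0.12.7 and TAIR10 without a role, and the peak caller is not given in the sources used here. The deposited lists give each peak a height, a score made by the authors, and a -log10 p from the authors' caller, which is capped at 324 and was used in one alternative. Per the labels' protocols, nuclei were captured by biotin and small double-cut fragments were sequenced; the amount of DNase I is given as a range for roots and as 1 value within it for flowers.

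Peaks on the 5 nuclear chromosomes were used, without chromosome 2 from 3.2 to 3.55 Mb, where a mitochondrial insertion lies. The best 11693 of each list were merged (gap 0 bp). All 5 lists lie within the chromosome lengths of TAIR10.1, whose 27444 protein-coding genes gave the nearest TSS. Of 291 list symbols 288 matched. The 3300 sites of all 5 lists were tested with limma 3.58.1 (R 4.3.3), checked on simulated data. Named were the 10 highest sites per direction with no peak of the other group within 100 bp, list members' sites with a mean percentile of at least 50, and the 8 smallest p per direction at shared sites; further members are named only to give counts of a list or after their values were seen. Python 3.11.15, numpy 2.4.6 and pandas 2.3.3 were used. The gene lists, the motifs and the comparison itself were chosen with earlier results of these data known, so no list is independent evidence. Each of the 5 groups has 1 list; p-values measure the spread between lists of different tissues. No read counts are given, so no counting error can be attached to a peak. Alternatives were other ranks, depths, widths and left-out lists.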

Additional observations from a re-analysis of the deposited data

Results flagged for a closer look

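Peaks on the chloroplast and mitochondrial sequences, which entered no comparison, made up a larger part of the flower lists than of the root lists. Their share of deposited peaks was 3.94% in open flowers and 2.87% in unopened flowers, against 0.750% in whole root, 1.36% in non-hair cells and 1.03% in hair cells. In numbers, open flowers had 244 chloroplast and 238 mitochondrial peaks, and whole root 166 and 55. The flower lists are shorter, and the part of list length in these shares was not tested.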

How the results depend on the processing

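The difference in similarity lay between 0.134 and 0.236 with a list left out; those designs are too small for a test, and without a flower list no flower pair remains. With all peaks there were 930 flower-only and 9268 root-only sites, and with the best 6000 peaks 1475 and 1676; absence judged in all peaks gave 864 flower-only sites. Leaving out each list gave 2480 to 4810 flower-only and 3016 to 4193 root-only sites, since fewer lists then have to agree. The W-box difference of 24.8 percentage points moved to 21.5 with all peaks, 20.0 with the best 6000 and 28.1 over whole sites, and lay between 20.5 and 27.5 with a list left out. Shared sites called by limma came to 137 higher in flowers and 505 higher in roots with all peaks, 0 and 0 with the best 6000 (162 and 72 at an unadjusted p below 0.05), and 86 and 58 when ranked by -log10 p; leaving out a list gave 0 to 401 and 0 to 146. No named shared site changed sign in a setting where it was tested. Members of the photosynthesis list with a flower-only site numbered 4 with the best 6000 peaks and 10 with all peaks, and floral identity members 4 and 7. With all peaks, floral identity members with a root-only site numbered 4. Of the 10 named flower-only sites, 8 were flower-only with the central 100 bp of peaks and 10 under each other setting run, and all 10 root-only sites were under each. These sites were chosen for high rank and for no peak of the other group within 100 bp. Most of this stability was therefore set by the choice and is no support for them. No paired analysis was possible because each group has a single list, so no replicate numbers are shared beyond the first. Depth is unknown for the lists used; root lists at 6.8M gave 2504 and 3066 separating sites.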

Other observations

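Among sites of both flower lists and a single root list, those with non-hair cells were the most numerous. A peak in both flower lists and non-hair cells, but not in whole root or hair cells, was found at 855 sites (3.67%), against 264 for whole root and 134 for hair cells. Non-hair cells also had the most sites found in a single root list and no other list, 1563 against 868 for whole root and 800 for hair cells. In total, open flowers shared 5786 sites with non-hair cells, 5731 with whole root and 5532 with hair cells. The non-hair list comes from the older seedlings, of 10 days. Of these 855 sites, 42.3%, 50.9% and 58.5% were among the best peaks of non-hair replicates 2, 3 and 4, against 9.82% in the second whole root list and 16.7% in the hair pool. The shares of all sites in those non-hair replicates were similar, at 49.3%, 48.2% and 46.7%. In the second whole root list and the hair pool they were 47.0% and 49.0%. Non-hair replicate 2 came from seedlings of 7 days, and replicates 3 and 4 from seedlings of 10 days. The 3 seed coat lists held 80.5%, 71.6% and 77.0% of the 855 sites. The converse pattern, both flower lists with whole root and hair cells but without non-hair cells, held 802 sites, of which 49.0% had a site II element in the central 150 bp, compared with 24.2% of the 855. Of these 802 sites, 80.7%, 72.3% and 79.2% were among the best peaks of non-hair replicates 2, 3 and 4, so most of them had a peak in the other non-hair lists. The seed coat lists held 84.7%, 85.9% and 76.3% of the 802, and 75%, 77.3% and 63.6% of the 264 sites of flowers and whole root.

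Sites in 1 flower stage alone differed in the CArG box, with a match in 3.77% of the 2389 sites of unopened flowers and 1.56% of the 1797 sites of open flowers. With 1 list per stage this is a description of the 2 lists. Among the best peaks of the 4-day seed coat list, the 4-day pool and the 7-day pool, 30.9%, 31.6% and 26.3% of the unopened flower sites were found, and 31.1%, 25.6% and 23.1% of the open flower sites.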
